A study of Mus musculus with 4 samples.

Results

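Wide H3K4me3 stretches are the places in the autosomes where the H3K4me3 count of each 4 kb tile stayed above the control over at least 12 kb. They were found in 4 kb tiles: a tile passed with at least 20 H3K4me3 reads and a depth-scaled count at least 2.5 times the larger of the control count and 3, and a stretch was a run of 3 or more adjoining passing tiles. The stretches were thus chosen by their H3K4me3 and WCE counts. Of 10775 runs on the autosomes, 344 (3.19%) were this long, while 2216 runs had 2 tiles and 8215 had 1. Of all autosomal tiles with a read, 2.44% passed. The stretches were then divided by their profile in 500 bp bins into 90 unbroken domains, with 1 peak, and 254 stretches with several separate peaks.

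All libraries were made from MDER 10T cells, a mouse fibroblast line in which, by the title of the series, MyoD1 can be induced with estrogen; no label names a treatment with it. Chromatin was immunoprecipitated with Abcam antibodies against H3K4me3, H3K27me3 or H3K9me3, and whole-cell extract (WCE) served as the control. All 4 groups share the same cells and medium, and each holds 1 library, so no spread between replicates can be measured and no p-value is given. Intervals below are 95% exact (Clopper-Pearson) intervals. They cover counting error only: amplified reads carry no molecular identifiers, so they need not be independent molecules. In a pooled cell population, fewer cells with a mark and less of the mark per cell cannot be told apart.

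H3K4me3, trimethylation of lysine 4 of histone H3, is laid down by SET1 and MLL complexes and usually marks the start sites of active or poised genes in short peaks. Broad H3K4me3 domains are known from genes of cell identity and from developmental gene clusters. H3K27me3 is written by Polycomb repressive complex 2 at silenced developmental genes, where it can share a promoter with H3K4me3, and H3K9me3 is typical of heterochromatin. Positions are mm8 and counted from 1. The gene table at hand is for another build, so no stretch was assigned to a gene.

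Counting each position and strand once, the autosomal reads numbered 3086567 H3K4me3, 2933567 H3K27me3, 2101444 H3K9me3 and 2977697 WCE. The 344 stretches covered 4612 kb and held 3.95% of the H3K4me3 reads, 0.468% of the H3K27me3 reads, 0.584% of the H3K9me3 reads and 0.612% of the WCE reads. A stretch had between 86 and 1345 H3K4me3 reads with a median of 319.5, and between 15 and 200 WCE reads with a median of 48. The pooled H3K4me3 to WCE ratio was 6.45, with 6.45 in runs of 2 tiles and 6.70 in runs of 1 tile. Since the rule used both libraries, these values are a description.

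Most stretches were just long enough to enter the set. Of the 344, 262 were 12 kb long, 59 were 16 kb, 15 were 20 kb, 4 were 24 kb, 3 were 28 kb and 1 was 44 kb. In 116 stretches the weakest tile had a scaled ratio under 3, and in 114 every tile reached 4. Just inside the threshold, the weakest tile had a ratio of 2.51 in the stretches that start at 136960001 on chromosome 1 (209 H3K4me3 and 33 WCE reads) and at 87076001 on chromosome 8 (869 H3K4me3 and 143 WCE reads). Just outside, the weakest tile of 3 had a ratio of 2.49 at 12072001 on chromosome 19 (321 H3K4me3 and 58 WCE reads) and at 165568001 on chromosome 2 (225 H3K4me3 and 55 WCE reads). Which regions count as wide also depends on where the tiles begin. With tiles starting at position 2000 there were 312 such runs, but 140 of the 344 stretches (40.7%) overlapped one, and with 2 kb tiles of at least 10 reads in runs of 6 or more there were 40. Their number was 142 at 4 times WCE, 212 at a minimum of 40 reads, 646 with scaling by the median ratio and 814 against the mean WCE density.

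Separate peaks were the usual form of a wide stretch. In the 500 bp profile a bin was on with at least 5 H3K4me3 reads, on-bins formed an island unless parted by 1 kb or more of off-bins, and an island with at least 20 reads was a peak. By this count 90 stretches (26.2%, 21.6 to 31.1%) had 1 peak, 196 had 2, 52 had 3, 4 had 4 and 2 had 5. Unbroken domains numbered 146 when 2 kb of off-bins was needed to part peaks, and 51 when islands of any read number counted as peaks. Unbroken domains made up 80 of the 262 stretches of 12 kb (30.5%, 25.0 to 36.5%), 8 of the 59 of 16 kb (13.6%, 6.04 to 25.0%) and 2 of the 23 of 20 kb or more (8.70%, 1.07 to 28.0%). The share with 1 peak was thus lower in the longer classes, with wide and overlapping intervals for the classes above 12 kb. Among runs of 2 tiles, 87.8% had 1 peak and 11.9% had 2. A longer run can hold more peaks by its length alone, so these shares are not set against each other.

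**Figure D1:**
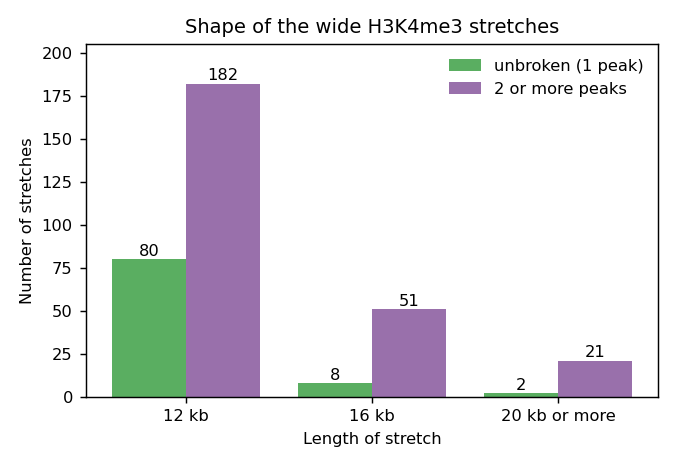
Number of wide H3K4me3 stretches (vertical axis) by length of the stretch (horizontal axis), with unbroken domains beside stretches of several separate peaks. Stretches with several peaks outnumber unbroken domains in every length class, with 182 against 80 at 12 kb.

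The 90 unbroken domains were not uniformly broad. The peak spanned 0.5 to 16 kb with a median of 8 kb, reached 8 kb in 47 domains and covered at least 50% of the run in 61. In 12 domains it was under 4 kb, so at least 1 of their tiles passed on reads outside the peak. In 39 domains at least 1 further bin outside the peak was on, and in 16 the peak touched an end of the run. Bins were counted only inside the run, so the width of a peak that touches an end is a lower bound. Of the 664 peaks of both kinds, 133 touched an end of their run.

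The widest unbroken peak, as measured inside its run, filled all 16 kb of the run on chromosome 15 from 76020001 to 76036000. The libraries had 1119 H3K4me3, 106 H3K27me3, 82 H3K9me3 and 143 WCE reads there, and its H3K4me3 density of 69.9 reads per kb was the highest of any stretch. The profile still had a weak stretch between 8 and 10.5 kb from its start, in which the bins held 5 to 8 reads. On chromosome 5 from 143072001 to 143092000, a peak of 15 kb lay in a run with 690 H3K4me3, 45 H3K27me3, 53 H3K9me3 and 66 WCE reads. On chromosome 8 from 129468001 to 129484000, a peak of 14.5 kb lay in a run with 815 H3K4me3, 65 H3K27me3, 70 H3K9me3 and 104 WCE reads. A peak just as wide, on chromosome 3 from 99376001 to 99392000, was much sparser, with 380 H3K4me3, 25 H3K27me3, 30 H3K9me3 and 54 WCE reads in the run. The other 6 of the 10 widest measured 11.5 to 13 kb and start at 95240001 on chromosome 8, 74504001 on chromosome 2, 5840001 on chromosome 19, 58104001 on chromosome 9, 75428001 on chromosome 5 and 126380001 on chromosome 10. In the domain on chromosome 19 the peak filled the whole 12 kb run, with 635 H3K4me3, 57 H3K27me3, 54 H3K9me3 and 92 WCE reads.

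All 8 stretches of 24 kb or more had several peaks, and 2 of the 15 stretches of 20 kb were unbroken domains. Some of the separate peaks were themselves 10 kb or wider. The longest ran for 44 kb on chromosome 11 from 96128001 to 96172000, with 1345 H3K4me3, 110 H3K27me3, 107 H3K9me3 and 200 WCE reads. Its 4 peaks measured 2.5, 13, 16 and 7 kb and held 112, 364, 591 and 250 H3K4me3 reads. On-bins made up 85.2% of this stretch, so the parts between its peaks were short. The 28 kb stretch on chromosome 6 from 52088001 to 52116000 was nearly continuous as well, with peaks of 15 and 11.5 kb that held 673 and 466 H3K4me3 reads. That stretch had 1145 H3K4me3, 72 H3K27me3, 74 H3K9me3 and 162 WCE reads. On chromosome 2 from 74524001 to 74548000, peaks of 6.5, 10 and 1.5 kb held 303, 362 and 99 H3K4me3 reads.

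Other long stretches were rows of narrower peaks. The 28 kb on chromosome 11 from 98588001 to 98616000 held 5 peaks of 5.5, 2.5, 2, 1.5 and 4 kb, with 178, 78, 30, 48 and 306 H3K4me3 reads. A further run with 5 peaks, on chromosome 3 from 88572001 to 88600000, had 597 H3K4me3, 60 H3K27me3, 72 H3K9me3 and 122 WCE reads, and 1 of its peaks, of 5.5 kb, held 285 of the H3K4me3 reads. On chromosome 1 from 93628001 to 93648000, 4 peaks were very unequal, with 407, 89, 21 and 24 H3K4me3 reads. The stretch on chromosome 8 from 87852001 to 87876000 had 1023 H3K4me3, 101 H3K27me3, 94 H3K9me3 and 144 WCE reads, and its peaks of 6.5, 7 and 1.5 kb held 392, 544 and 65 of the H3K4me3 reads. Of the 8 stretches of 24 kb or more, the one with the fewest H3K4me3 reads lay on chromosome 13 from 21168001 to 21192000, with 329 H3K4me3, 42 H3K27me3, 24 H3K9me3 and 48 WCE reads.

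**Figure D2:**
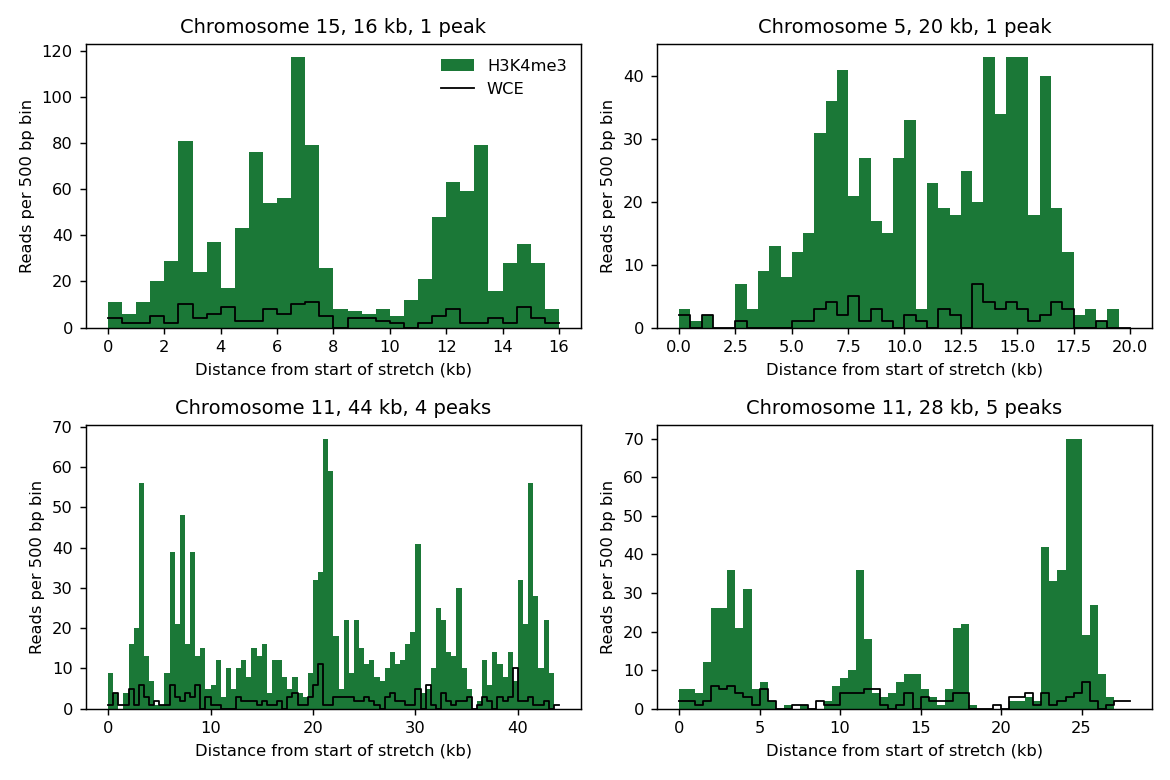
H3K4me3 reads (green) and WCE reads (black line) per 500 bp bin, as deposited and collapsed but not depth-scaled, against distance from the start of the stretch in kb, for 2 unbroken domains (upper row) and 2 stretches with several peaks (lower row). The 16 kb domain on chromosome 15 stays at 5 or more reads in every bin, while the 28 kb stretch on chromosome 11 falls below 5 reads between its 5 peaks.

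Over all 254 stretches with several peaks, the 574 peaks had a median width of 2.5 kb, and 19 stretches had a peak of 8 kb or more. Neighbouring peaks were 6 kb apart from centre to centre at the median, with a range of 2.75 to 15.5 kb. The strongest peak took a median of 64.4% of the reads in peaks, and in 124 of 254 stretches it held at least 2 times the reads of the second. Peaks of 1 stretch were thus often unequal. The highest bin lay in the middle 50% of the run in 73 of 90 unbroken domains and 158 of 254 stretches with several peaks. The need for 3 or more adjoining passing tiles can favour a middle place for a single peak. What share the rule alone would give was not computed, so the 2 kinds are not set against each other.

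Read density fell steeply between the peaks. In scaled reads per kb (each library set to the WCE autosomal total), peaks of stretches with several peaks had 46.0 for H3K4me3, 4.04 for H3K27me3, 5.04 for H3K9me3 and 5.60 for WCE. The 320 gaps between them, with a median length of 3 kb, had 2.67 for H3K4me3, 1.92 for H3K27me3, 2.20 for H3K9me3 and 2.19 for WCE. H3K4me3 density in the gaps was 0.0580 times that in the peaks (0.0558 to 0.0603), a drop that the definition of gaps as bins with few H3K4me3 reads builds in; in the runs of 2 kb tiles it was 10.3% of the peak density. WCE, which did not define the gaps, was at 0.391 times its peak density (0.373 to 0.410), H3K27me3 at 0.475 times (0.451 to 0.500) and H3K9me3 at 0.437 times (0.413 to 0.463). All libraries, the control included, were therefore denser in the H3K4me3 peaks than between them. Of the 320 gaps, 10 had 0 WCE reads.

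Peaks were about as dense in both kinds of stretch. In the peaks of unbroken domains the scaled density was 46.1 reads per kb for H3K4me3, 3.78 for H3K27me3, 5.30 for H3K9me3 and 5.49 for WCE. The interval of the H3K4me3 density ratio between these peaks and those of stretches with several peaks was 0.991 to 1.02. By width, H3K4me3 density was 49.1 in peaks under 2 kb, 46.9 from 2 to under 4 kb, 45.5 from 4 to under 8 kb and 44.6 at 8 kb or more. These values are a description, since H3K4me3 reads defined the peaks, and the minimum of 20 reads asks for a higher density in a narrow peak than in a wide one.

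**Figure D3:**
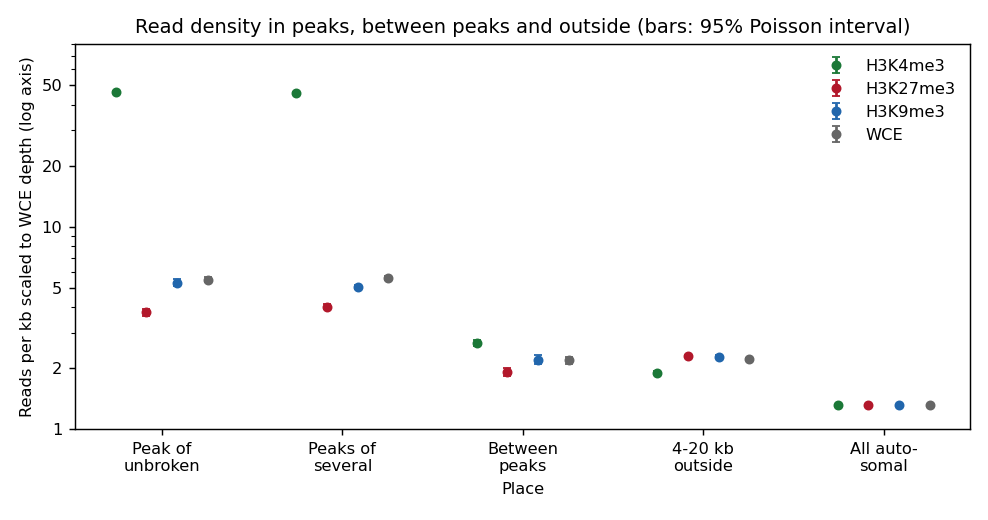
Scaled reads per kb (logarithmic vertical axis) of the 4 libraries in the peaks of unbroken domains, in the peaks and the gaps of stretches with several peaks, in tiles 4 to 20 kb outside that did not pass and in all autosomal tiles (horizontal axis), with 95% Poisson intervals for counting error. H3K4me3 stands at 46.1 and 46.0 in the peaks and at 2.67 in the gaps, while WCE stands at 5.49, 5.60 and 2.19.

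Outside the stretches, tiles 4 to 20 kb away that did not pass had 1.90 scaled reads per kb for H3K4me3, 2.31 for H3K27me3, 2.28 for H3K9me3 and 2.22 for WCE. All 4 values lay above the autosomal mean of 1.31. The gaps between peaks had 1.40 times the H3K4me3 density of these flanks (1.34 to 1.46), while H3K27me3 was at 0.831 times (0.792 to 0.872), H3K9me3 at 0.964 times (0.914 to 1.02) and WCE at 0.987 times (0.943 to 1.03). H3K4me3 in the gaps was thus slightly above its flank level, and H3K27me3 slightly below. The flank tiles were chosen as failing the H3K4me3 rule, which lowers their H3K4me3 value. They lie beside both kinds of stretch, while the gaps belong only to stretches with several peaks. Beside the latter alone, such tiles had 1.74 scaled reads per kb for H3K4me3 and 2.35 for H3K27me3. They had 2.20 for H3K9me3 and 2.15 for WCE.

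**Figure D4:**
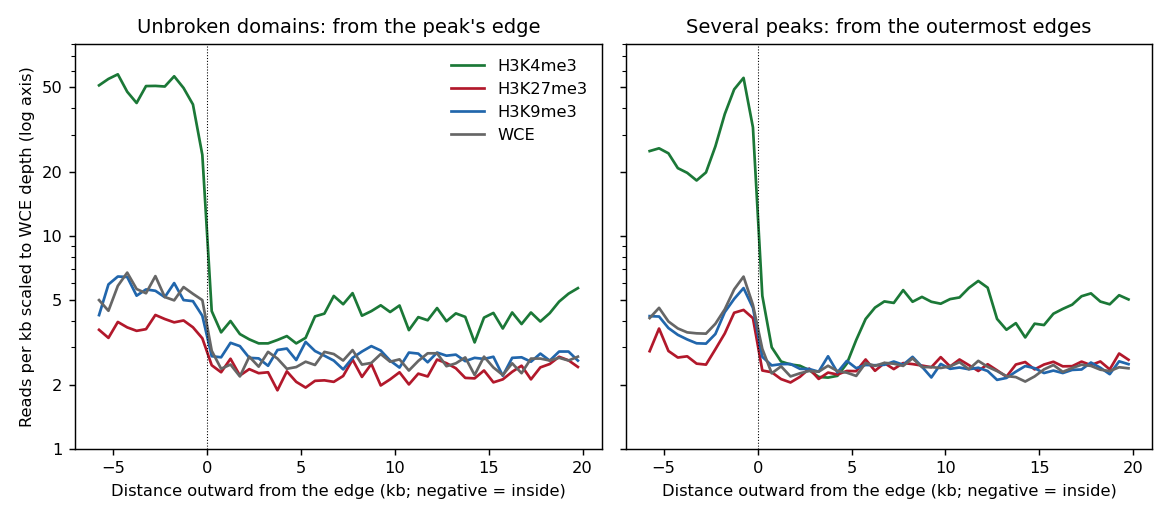
Mean scaled reads per kb (logarithmic vertical axis) of the 4 libraries against distance outward from the edge of the peak in kb, with negative values inside, for unbroken domains (left) and from the outermost edges of stretches with several peaks (right). H3K4me3 drops within about 1 kb of the edge, and WCE, H3K9me3 and H3K27me3 drop at the same place by less. Bins with at least 5 H3K4me3 reads defined the edge, so the H3K4me3 drop there is built in.

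With libraries scaled to equal autosomal totals, H3K27me3 was low in the wide stretches relative to H3K9me3 and WCE. The stretches held 13717 H3K27me3, 12270 H3K9me3 and 18224 WCE reads. The depth-scaled H3K27me3 to WCE ratio was 0.764 (0.747 to 0.781), and the H3K9me3 to WCE ratio was 0.954 (0.932 to 0.976). WCE enters the rule, so these ratios are not independent of how the stretches were chosen. The H3K9me3 to WCE ratio was on the other side of 1, at 1.01, with scaling by the median ratio and with the mean WCE density in the rule. Scaling by the median ratio also brought the H3K27me3 to WCE ratio nearer to 1, though still below it. The same held for the H3K27me3 to H3K9me3 ratio of wide stretches, given next. The H3K27me3 to H3K9me3 ratio uses neither library of the rule, and was 0.801 (0.781 to 0.821) in wide stretches, 0.897 (0.885 to 0.909) in runs of 2 tiles, 0.972 (0.963 to 0.981) in runs of 1 tile and 1.0 in tiles that did not pass. The intervals of wide stretches, runs of 2 and runs of 1 did not overlap. Among the wide stretches the ratio was 0.815 (0.791 to 0.839) at 12 kb, 0.825 (0.782 to 0.869) at 16 kb and 0.685 (0.637 to 0.737) at 20 kb or more.

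Unbroken domains had the lower ratio of the 2 kinds, at 0.725 (0.691 to 0.761), against 0.830 (0.806 to 0.854) in stretches with several peaks. The flanks differed in the same direction, at 0.872 (0.839 to 0.908) beside unbroken domains and 1.07 (1.04 to 1.09) beside stretches with several peaks. The ratio was also taken by the width of each peak, with the peaks of both kinds pooled. It was 0.886 (0.808 to 0.972) under 2 kb and 0.854 (0.810 to 0.901) from 2 to under 4 kb. From 4 to under 8 kb it was 0.727 (0.690 to 0.766), and at 8 kb or more 0.717 (0.679 to 0.758). Of the 69 peaks of 8 kb or more, 47 were those of unbroken domains, and 88 of the 90 peaks of unbroken domains reached 2 kb. Width and kind were thus not separated in these classes. The intervals of the classes below and above 4 kb did not overlap. Stretch by stretch the relation was weak or not seen: the ratio of the whole stretch and the width of its widest peak had a Pearson r of 0.0165 and a Spearman rho of -0.00766 over the 90 unbroken domains, and -0.175 and -0.203 over the 254 stretches with several peaks. These are descriptions over regions of the same libraries, with few reads in each. Within 1 library, density inside wide stretches was 1.31 times that of the flanks for H3K27me3 (1.28 to 1.34), 1.65 times for H3K9me3 (1.61 to 1.69) and 1.78 times for WCE (1.75 to 1.82), a comparison that needs no scaling between libraries. With 1 library of each mark, a difference between libraries and a difference between marks cannot be told apart.

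**Figure D5:**
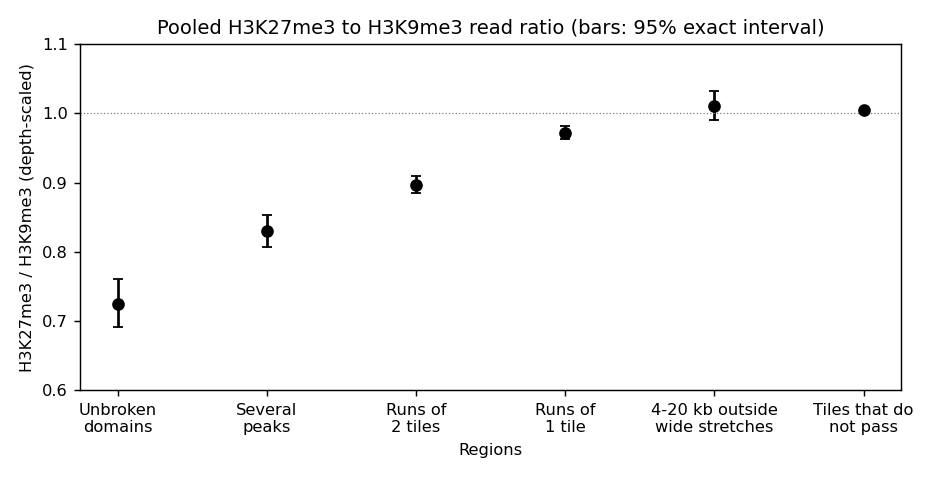
Depth-scaled H3K27me3 to H3K9me3 ratio, with 95% exact intervals for counting error, in the 2 kinds of wide stretch, in shorter H3K4me3 runs, in tiles 4 to 20 kb outside wide stretches that did not pass and in all tiles that did not pass. The ratio is 0.725 in unbroken domains and 0.830 in stretches with several peaks, against 0.897 in runs of 2 tiles and 0.972 in runs of 1 tile.

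Single stretches were mostly too shallow to place. The H3K27me3 to H3K9me3 interval included 1 in 262 of 344 stretches, lay below 1 in 73 and above 1 in 9. Among the 309 stretches with at least 40 reads of these libraries together, the highest ratio was on chromosome 3 from 89400001 to 89412000, with 169 H3K4me3, 134 H3K27me3, 35 H3K9me3 and 31 WCE reads (2.74, 1.88 to 4.10). Next came chromosome 5 from 137516001 to 137528000, with 153 H3K4me3, 77 H3K27me3, 24 H3K9me3 and 38 WCE reads (2.30, 1.44 to 3.80). On chromosome 11 from 96108001 to 96124000, 4 kb before the 44 kb stretch, there were 229 H3K4me3, 186 H3K27me3, 64 H3K9me3 and 53 WCE reads (2.08, 1.56 to 2.81). The 5 stretches with the highest ratios, which also start at 153128001 on chromosome 2 and 80868001 on chromosome 18, all had several peaks, as did 254 of all 344.

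Among the same 309 stretches, the lowest ratio was on chromosome 16 from 17708001 to 17720000, with 280 H3K4me3, 30 H3K27me3, 82 H3K9me3 and 37 WCE reads (0.262, 0.166 to 0.403). The unbroken domain on chromosome 7 from 73260001 to 73276000 was close to it, with 255 H3K4me3, 25 H3K27me3, 68 H3K9me3 and 43 WCE reads (0.263, 0.160 to 0.422). Of the 5 lowest, which also start at 37932001 on chromosome 18, 82160001 on chromosome 1 and 125724001 on chromosome 2, 4 were unbroken domains, as were 90 of all 344. With no read minimum the lowest ratio was 0.126, from 3 H3K27me3 and 17 H3K9me3 reads in a stretch with several peaks at 157964001 on chromosome 3. In the stretches on chromosomes 16 and 7, and in those at 37932001 and 82160001, the H3K9me3 to WCE ratio was 3.14, 2.24, 1.95 and 1.81, with every interval above 1. At 125724001 it was 1.12 (0.760 to 1.66), with 25 H3K27me3, 50 H3K9me3 and 63 WCE reads. The H3K27me3 to WCE ratio was 0.403 (0.243 to 0.650) at 125724001 and 0.590 (0.345 to 0.988) at 73260001. At 37932001 it was 0.554 (0.358 to 0.843) and at 82160001 0.568 (0.345 to 0.920). On chromosome 16 it was 0.823 (0.491 to 1.37), the only 1 of these intervals that included 1. These 5 stretches were picked for few H3K27me3 reads relative to H3K9me3 reads, so their ratios of either mark to WCE are a description. Their intervals, and those of the 5 highest, take no account of picking extremes.

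Tiles that passed the same rule for H3K27me3, 1.43% of all autosomal tiles, were about as common inside wide stretches, at 18 of 1153 tiles (1.56%). They lay in 13 stretches. Of the 254 stretches with several peaks, 12 held such a tile (4.72%, 2.46 to 8.11%). Among the 90 unbroken domains it was 1 (1.11%, 0.0281 to 6.04%), and the intervals overlapped. The H3K27me3 share was 1.96% of the tiles in runs of 2 and 4.80% in runs of 1. On chromosome 14 from 20768001 to 20784000, 3 tiles in a row passed, with 33, 56 and 44 H3K27me3 reads, 18, 31 and 16 H3K9me3 reads, and 5, 22 and 15 WCE reads; the same tiles held 52, 262 and 112 H3K4me3 reads. On chromosome 3 the tile at 89404001 held 60 H3K4me3, 81 H3K27me3, 14 H3K9me3 and 12 WCE reads. In such tiles both marks were above the control in the cell population, and whether they sit on the same molecules was not measured.

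An H3K27me3 tile lay inside or within 20 kb of 59 of 344 wide stretches (17.2%, 13.3 to 21.6%), against 13.0% (11.6 to 14.5%) of runs of 2 tiles and 16.3% (15.5 to 17.1%) of runs of 1 tile. The interval of the wide stretches overlapped those of both shorter classes. The share depended on the thresholds, at 7.08% with a minimum of 40 reads, 35.8% with 10 reads, 37.5% with 2 kb tiles of at least 10 reads and 50.4% against the mean WCE density. It was 12.2% (6.26 to 20.8%) for unbroken domains and 18.9% (14.3 to 24.3%) for stretches with several peaks, with overlapping intervals. In 4 stretches such tiles lay on both sides. The span searched included the run itself, so a longer run could hold more such tiles by its length alone. Within 20 kb outside only, the share was 15.1% (11.5 to 19.3%) for wide stretches. It was 11.2% (9.95 to 12.6%) for runs of 2 tiles and 14.0% (13.2 to 14.7%) for runs of 1 tile. For unbroken domains it was 11.1% (5.46 to 19.5%), and for stretches with several peaks 16.5% (12.2 to 21.7%). No share was computed for all autosomal spans of this length.

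The 5 stretches with the most H3K27me3 tiles within 20 kb include the longest. Before the 44 kb stretch on chromosome 11, the tiles at 96108001 and 96112001 held 67 and 78 H3K27me3 reads against 9 and 11 WCE reads, within the wide stretch that precedes it, and after it the tiles at 96180001, 96184001 and 96188001 held 37, 27 and 28 H3K27me3 reads against 9, 5 and 11 WCE reads. Inside, over 11 tiles, the H3K27me3 to WCE ratio was 0.558 (0.438 to 0.708). On chromosome 6, the run from 52140001 to 52156000 had 288 H3K4me3, 109 H3K27me3, 63 H3K9me3 and 51 WCE reads, and the 5 tiles after it held 66, 92, 81, 59 and 105 H3K27me3 reads against 18, 11, 10, 9 and 12 WCE reads. In those 5 tiles H3K4me3 had 22, 39, 6, 19 and 12 reads. Of these 5 tiles, 1 also passed for H3K4me3. H3K27me3 was already above WCE in the last tile of the run, at 52152001, with 58 H3K4me3, 52 H3K27me3 and 9 WCE reads. No tile within 20 kb before this run passed for H3K27me3. On chromosome 9, 4 tiles in a row before the run that starts at 107392001 held 37, 50, 43 and 27 H3K27me3 reads against 9, 12, 13 and 5 WCE reads. Beside the run at 73060001 on chromosome 8, H3K27me3 tiles lay on both sides, 3 before it and 2 after it.

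H3K9me3 tiles, 0.0872% of all autosomal tiles, were 10 of the 1153 tiles in wide stretches (0.867%), against 0.722% of tiles in runs of 2 and 0.523% in runs of 1. All 3 classes were above the autosomal share. WCE density was 3.95 reads per kb in wide stretches, 3.32 in runs of 2, 3.54 in runs of 1 and 1.31 over all autosomal tiles, and its part in these shares was not tested. The strongest, on chromosome 16 from 17716001 to 17720000, held 27 H3K4me3, 15 H3K27me3, 52 H3K9me3 and 8 WCE reads. It lay outside the 3.5 kb H3K4me3 peak of its stretch, which ended at 17714000. On chromosome 13 the tile at 73096001 instead combined 211 H3K4me3 reads with 2 H3K27me3, 20 H3K9me3 and 5 WCE reads. Of the 10 stretches with such a tile, 4 were unbroken domains and 6 had several peaks. One tile, at 96112001 on chromosome 11, passed for all 3 marks, with 39 H3K4me3, 78 H3K27me3, 20 H3K9me3 and 11 WCE reads.

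Many wide stretches had H3K4me3 neighbours, given here as a description because the same counts chose the runs. Another passing tile lay within 20 kb of 179 of 344 (52.0%, 46.6 to 57.4%), against 33.2% (31.3 to 35.2%) of runs of 2 tiles and 32.9% (31.9 to 34.0%) of runs of 1 tile. Wide stretches within 20 kb of each other formed 17 pairs, such as the pair on chromosome 2 that starts at 74504001 and 74524001, with 386 and 787 H3K4me3 reads, and the pair on chromosome 8 at 87656001 and 87672001, with 404 and 800. In both pairs 4 kb parted the runs. H3K4me3 and WCE density were correlated over the 344 stretches (Pearson r 0.757, Spearman rho 0.737), as counts of the same regions taken through the same rule.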

How the data were processed

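The deposited values are read positions whose sign gives the strand; peaks or region counts are not part of the files used. Reads were aligned to mm8 with Bowtie (options e 70, k 2, m 2, n 2 and l 36), per the file headers, so reads matching more than 2 places are missing. Per the labels' protocols, sonicated fragments averaged 500 bp, amplification took 18 cycles, and inserts measured 50 to 200 nt.

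Reads with 1 reported position were collapsed to 1 per position and strand, moved 60 bp along their strand and counted in 4 kb tiles and 500 bp bins of the autosomes. Ratios were scaled to equal autosomal totals. Stretches named by position are the 10 longest (ties by H3K4me3 reads), the 10 widest unbroken peaks, the 5 with most peaks, the 5 with the highest and lowest H3K27me3 to H3K9me3 ratio (1 read added, at least 40 reads of these libraries together), the 5 with most H3K27me3 tiles within 20 kb, and the 5 nearest the threshold on each side. Other positions were chosen after their values were seen. The members and lists were chosen with earlier results of these data known. The procedure was tested on a simulated chromosome. Its runs were planted on the tile grid, so that test did not cover how the calls depend on where tiles begin. Alternatives changed repeated reads, read shift, tiles, thresholds, scaling, control and bins. Scripts ran in Python 3.11.15 with scipy 1.17.1, numpy 2.4.6 and, for plots, matplotlib 3.10.9.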

Additional observations from a re-analysis of the deposited data

Results flagged for a closer look

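Reads with 2 reported positions, listed at both and left out of every comparison above, were also more frequent in H3K4me3 than in WCE within the wide stretches. There were 1777 such H3K4me3 reads and 378 such WCE reads, a ratio of 4.54 (4.06 to 5.08) when scaled by the totals of reads with 1 position. Over all autosomes such reads numbered 153865 for H3K4me3 and 175201 for WCE. In runs of 2 tiles they numbered 5381 and 1173, and in runs of 1 tile 18894 and 3387. Counted whole and not by tile, 21 stretches had at least 20 of these H3K4me3 reads and 2.5 times the WCE level. That count was not made for other regions, so it has no background share. In the gaps between peaks they made up 8.59% of H3K4me3 reads and 6.02% of WCE reads, against 1.44% of H3K4me3 reads and 2.03% of WCE reads in whole stretches. Over all autosomes they made up 4.75% of H3K4me3 reads and 5.56% of WCE reads. The WCE share in the gaps was thus near the autosomal share, and both shares in whole stretches were below it.

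Chromosome X, outside the autosomal rule, had 3 runs of 3 tiles among 338 runs (0.888%). The run from 19812001 held 132 H3K4me3, 6 H3K27me3, 9 H3K9me3 and 17 WCE reads, that from 70496001 held 208 H3K4me3, 20 H3K27me3, 15 H3K9me3 and 35 WCE reads, and that from 129028001 held 249 H3K4me3, 11 H3K27me3, 17 H3K9me3 and 26 WCE reads.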

How the results depend on the processing

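The number of stretches depended on the settings. There were 40 with 2 kb tiles, which also had a minimum of 10 reads and runs of 6 or more tiles, 142 at 4 times WCE, 212 at a minimum of 40 reads, 646 with scaling by the median ratio over 100 kb bins and 814 with the mean WCE density in place of the tile's own count. In the same order, unbroken domains numbered 17, 34, 45, 186 and 252, and stretches with several peaks 23, 108, 167, 455 and 544. Unbroken domains also numbered 138 at a minimum of 10 reads, 146 when peaks were parted by 4 off-bins, and 51 without a read minimum for peaks, an alternative chosen after seeing the data. Keeping every read or changing the shift left at least 96.2% of the 344 stretches overlapped.

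The H3K27me3 to WCE ratio was 0.784 with tiles from position 2000, 0.658 with 2 kb tiles, 0.719 at 40 reads, 0.982 with median scaling and 0.830 with the mean WCE density. The H3K9me3 to WCE ratio was 0.925 with tiles from 2000 and 0.916 at 40 reads, and turned to 1.01 with median scaling and to 1.01 with the mean WCE density; the cause was not tested. Median scaling shifts ratios over WCE by 0.81 (log2) for H3K4me3, 0.31 for H3K27me3 and 0.08 for H3K9me3. The H3K27me3 to H3K9me3 ratio was 0.848 with tiles from 2000, 0.680 with 2 kb tiles, 0.775 at 4 times WCE and 0.972 with median scaling, and stayed below 1 in every alternative. The share of stretches with an H3K27me3 tile inside or beside was 37.5% with 2 kb tiles, 12.0% at 4 times, 35.8% at 10 reads, 7.08% at 40 reads, 23.2% with median scaling and 50.4% with the mean WCE density, each of which also changes the H3K27me3 tiles.

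H3K4me3 density in the gaps, 5.80% of that in the peaks, was 10.3% with 2 kb tiles, 6.33% at 2 times, 4.82% at 4 times, 7.68% with median scaling, 8.50% with the mean WCE density, 5.16% and 7.64% with on-bins of 4 and 8 reads, 6.33% and 5.14% with 1 and 4 off-bins, 7.09% with 1 kb bins and 6.07% without a read minimum. No paired analysis was possible because each group holds 1 library.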

Other observations

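Wide stretches were unevenly spread over the chromosomes. Chromosome 11 had 44, or 38.0 per 100 Mb of tiles with a read and 4.95% of its runs. Chromosome 17 had 25 (28.8 per 100 Mb, 4.91% of its runs), while chromosome 1 had 12 (6.55 per 100 Mb, 1.99%). The megabases from 87000001 on chromosome 8 and from 127000001 on chromosome 10 held 5 stretches each.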
